A study of Mus musculus with 6 samples.

Results

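The enhancer-promoter predictions at 8 long non-coding RNA (lncRNA) genes, Neat1, Malat1, Meg3, Miat, Rmst, Sox2ot, Gas5 and Snhg1, were examined in mouse oligodendrocyte precursor cells (OPCs) with and without IFN-γ. The genes were chosen by name, for known nuclear or neural functions, and not by their values. Their pairs were found through the Ensembl gene of each listed target. Of the 8 genes, 6 were listed as a target in at least 1 condition, out of 32049 target genes in all. Meg3 and Gas5 were listed in neither table, and Miat was listed in Ctr-OPCs alone. The 6 listed genes had 42 element-gene pairs out of 138115, with 21 in each condition.

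Primary OPCs from brains of mice of the genotype Sox10-Cre/RCE, given as C57BL/6j, were cultured in proliferation medium with bFGF and PDGF-AA. In the cross that the study describes, only the Sox10:Cre parent was C57BL/6j, and the RCE parent had a mixed background with CD1. From 24 h after passaging they were kept in that medium (Ctr-OPCs) or received IFN-γ in it at 100 ng/mL (IFN-γ-OPCs). Per the study's methods, the pups were of both sexes, postnatal day 4 to 6, with brains pooled, and the cells were sorted for GFP or selected for CD140a, so the reporter driven by Cre under Sox10 marks the oligodendrocyte lineage as a whole. H3K27ac-HiChIP, which enriches ligated contacts of chromatin that carries this histone mark, was made from 3 libraries per condition. Each prediction table combines the libraries of its condition, so no value has a replicate error, no test was made, and the depth behind the tables is unknown. In the deposited activity-by-contact (ABC) model, the score of an element for a gene is its activity times its contact with the promoter, divided by the sum of this product over all elements of the gene (the gene total). Scores start at 0.02 in the tables, and a connection was a pair scoring above 0.05, the cut-off of the study. A difference between conditions was called where the ratio was past 1.5-fold in either direction.

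LncRNAs are transcribed and often spliced like messenger RNAs but do not encode proteins. Neat1 is the scaffold of nuclear paraspeckles, and Malat1 is an abundant RNA of nuclear speckles, transcribed from the neighbouring gene. Rmst and Sox2ot are linked with the stem cell factor Sox2, whose gene lies within an intron of Sox2ot. Miat, also called Gomafu, is a nuclear RNA of neurons and progenitors. Meg3 is the imprinted lncRNA of the Dlk1-Dio3 region. Gas5 and Snhg1 are host genes, whose introns hold small nucleolar RNAs (snoRNAs).

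The elements on which the results turn are shown here by sequence, from the RefSeq genome GRCm38.p6, whose coordinates are those of mm10. Each is a window of 300 bases within the part shared by the elements of both conditions. The window was central unless a match in that part lay outside it, and was then moved to hold the match. This was done at Malat1 alone. Capitals mark matches, on either strand, to the core of the interferon-stimulated response element (a pair of GAAA blocks with 2 bases of any kind between them), and lower case is the rest. TGANTCA, the AP-1 core, had no match in these windows. The first lies upstream of Malat1 and the second upstream of Neat1 in an intron of Frmd8os, and each was a connection of both genes in both conditions. The third, in an exon of Rmst, and the fourth, in coding sequence of Slc3a2 beside Snhg1, each passed the cut-off in IFN-γ-OPCs alone. The fifth, in an intron of Sox2ot near Sox2, was listed with Sox2ot in Ctr-OPCs alone.
Malat1 upstream element, chr19:5803387-5803686, plus strand: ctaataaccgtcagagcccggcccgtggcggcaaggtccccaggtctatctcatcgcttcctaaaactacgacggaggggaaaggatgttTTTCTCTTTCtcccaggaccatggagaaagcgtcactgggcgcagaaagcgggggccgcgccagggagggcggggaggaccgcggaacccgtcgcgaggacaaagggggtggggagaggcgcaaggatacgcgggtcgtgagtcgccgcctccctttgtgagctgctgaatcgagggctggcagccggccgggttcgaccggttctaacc
Neat1 upstream element, chr19:5846585-5846884, plus strand: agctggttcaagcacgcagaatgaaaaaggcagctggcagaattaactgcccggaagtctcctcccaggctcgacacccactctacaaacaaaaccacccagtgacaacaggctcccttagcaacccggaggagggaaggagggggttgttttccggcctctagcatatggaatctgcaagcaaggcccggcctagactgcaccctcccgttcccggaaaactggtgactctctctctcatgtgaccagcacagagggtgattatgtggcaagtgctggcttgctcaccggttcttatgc
Rmst exonic element, chr10:92162564-92162863, plus strand: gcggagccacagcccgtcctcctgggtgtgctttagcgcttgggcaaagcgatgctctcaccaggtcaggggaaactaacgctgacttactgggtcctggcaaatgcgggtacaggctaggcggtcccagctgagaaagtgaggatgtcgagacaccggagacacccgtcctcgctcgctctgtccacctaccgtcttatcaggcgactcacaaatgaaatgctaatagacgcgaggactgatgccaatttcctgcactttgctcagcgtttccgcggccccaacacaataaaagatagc
Snhg1 element in Slc3a2, chr19:8713330-8713629, plus strand: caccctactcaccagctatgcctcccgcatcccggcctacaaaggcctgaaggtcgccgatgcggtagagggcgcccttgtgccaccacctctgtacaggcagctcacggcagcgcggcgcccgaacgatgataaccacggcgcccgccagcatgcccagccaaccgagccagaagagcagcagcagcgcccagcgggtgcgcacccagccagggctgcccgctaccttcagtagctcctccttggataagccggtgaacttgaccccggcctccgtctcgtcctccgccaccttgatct
Sox2ot far intronic element, chr3:34659870-34660169, plus strand: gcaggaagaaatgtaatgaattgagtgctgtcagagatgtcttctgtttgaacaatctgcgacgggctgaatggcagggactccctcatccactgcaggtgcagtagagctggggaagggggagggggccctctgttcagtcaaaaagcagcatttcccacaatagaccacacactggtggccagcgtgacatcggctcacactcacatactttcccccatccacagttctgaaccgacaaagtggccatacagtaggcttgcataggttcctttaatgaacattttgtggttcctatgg

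The window at Malat1 held 1 interferon-response core, and it had been moved from the centre to hold it. The windows at Neat1, Rmst, Snhg1 and Sox2ot held no match to either motif. Over windows of 500 bp centred on the element, the interferon-response core was in 2 of the 17 elements listed with the lncRNA genes in Ctr-OPCs and in 3 of the 15 with IFN-γ. It was in 5.41% of all 33083 elements of the first table and in 8.60% of all 35906 of the second. The AP-1 core was in 2 and 3 of these elements, against 14.5% and 16.2% of all. Among them were the Rmst element of Ctr-OPCs and the Snhg1 element of IFN-γ-OPCs, with matches outside the windows shown. Among RefSeq promoter windows of 300 bases, 7 windows matched 5 of the genes (Gas5, Miat, Meg3, Malat1 and Snhg1). None of these 7 held one of the motifs, which were in 3.44% (interferon-response) and 7.81% (AP-1) of 32851 promoters. These matches describe letters in a window and not bound sites.

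Of the 8 genes, 2 had a connection without IFN-γ and 4 with it, whereas 8850 and 9454 of all 32049 target genes had one. Neat1 and Malat1 had 2 connections each in both conditions. Rmst and Snhg1 each had 0 in Ctr-OPCs against 1 in IFN-γ-OPCs. The gain of Rmst was lost with overlapping elements joined and kept with scores scaled to the Ctr-OPC width. That of Snhg1 was kept with elements joined and lost at the Ctr-OPC width. Sox2ot had none in either condition, and neither had Miat, which was not listed in IFN-γ-OPCs. The sum over the 8 genes was 4 without IFN-γ and 6 with it, with 2 genes higher and 0 lower. Of all 32049 target genes, 14.9% had more connections in IFN-γ-OPCs and 13.0% had fewer. With every listed pair counted, the sum was 21 in both conditions, and Rmst then had fewer in IFN-γ-OPCs, with 3 and 1.

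**Figure D1:**
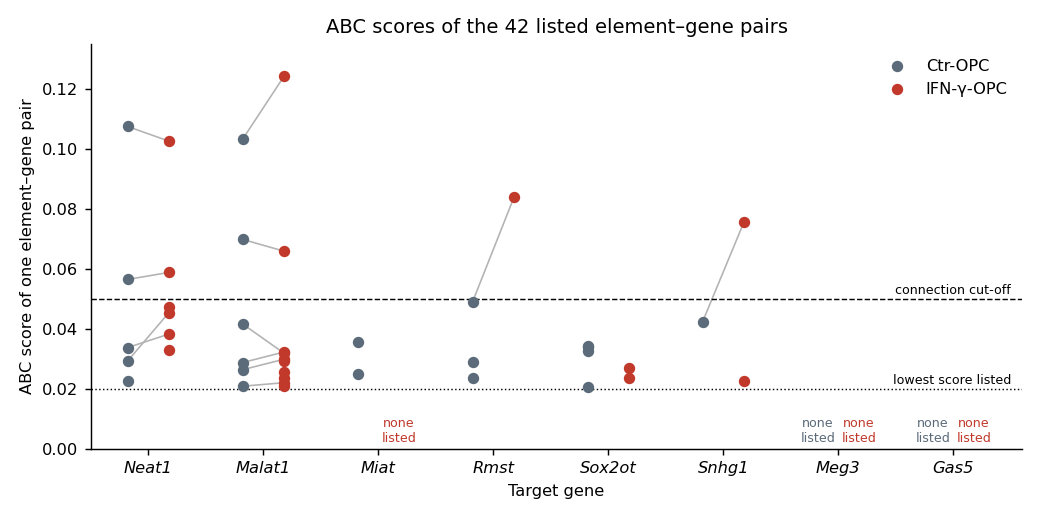
ABC score (y axis, a share of the gene total) of each listed element-gene pair, by target gene, in Ctr-OPCs (grey) and IFN-γ-OPCs (red), 1 pooled table per condition, with grey lines joining matched elements, the connection cut-off of 0.05 dashed and the lowest listed score of 0.02 dotted. Neat1 and Malat1 hold 2 pairs above the cut-off in both conditions, Rmst and Snhg1 pass it in IFN-γ-OPCs alone, and Meg3 and Gas5 have no pair.

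Neat1 (chr19:5824708-5845478, minus strand, mm10) and Malat1 (chr19:5795690-5802672, minus strand) have start sites 42.8 kb apart and drew on the same elements. Of 17 elements listed with either gene, counted over both tables, 10 were listed with both, out of 11 for Neat1 and 16 for Malat1. Each gene had its highest score with the element just upstream of its own start and its next highest with the element upstream of the other gene. The Malat1 upstream element (chr19:5803387-5803886 in Ctr-OPCs, intergenic, 0.964 kb from the Malat1 start) had an activity of 4.18 in Ctr-OPCs against 4.20 in IFN-γ-OPCs. Its score for Malat1 was 0.103 without IFN-γ and 0.124 with it, and for Neat1 it was 0.0565 and 0.0588. The Neat1 upstream element (chr19:5846489-5846988 in Ctr-OPCs, 1.26 kb from the Neat1 start) had an activity of 5.38 and 5.02. Its score for Neat1 was 0.107 in Ctr-OPCs against 0.103 in IFN-γ-OPCs, and for Malat1 it was 0.0698 and 0.0659. None of these 4 scores was past 1.5-fold between conditions.

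The connections that cross between the genes spanned 41.8 and 44.1 kb. They rest on 1 value of contact per condition, because both cross the same pair of 5 kb bins, and this adjusted contact was 0.0349 without IFN-γ and 0.0329 with it. The tables also give a score computed from a power law of distance in place of contact. For the Malat1 upstream element and Neat1 the ABC score was 2.61 times this distance-based score in Ctr-OPCs against 2.65 times in IFN-γ-OPCs. For the Neat1 upstream element and Malat1 it was 2.75 and 2.47 times. Over all connections at 40 to 50 kb the median was 1.06 times in 219 Ctr-OPC connections and 1.07 times in 208 IFN-γ-OPC connections. With the distance-based score neither crossing pair passed 0.05.

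The remaining elements of the locus scored below the cut-off for both genes. The element next to the Neat1 upstream element (chr19:5847903-5848402 in Ctr-OPCs, in an intron of Frmd8os) had an activity of 1.46 without IFN-γ and 2.22 with it, 1.52-fold higher. Its score for Neat1 was 0.0292 and 0.0454, 1.55-fold higher, and with Malat1 it was listed in IFN-γ-OPCs alone (0.0292). A further pair of elements was listed in IFN-γ-OPCs alone, with no overlapping element in the Ctr-OPC table. One overlapped an exon of Neat1 (chr19:5842479-5842978, activity 1.62) and scored 0.0331 for Neat1 and 0.0210 for Malat1. The other overlapped an exon of Frmd8 (chr19:5851421-5851920, activity 2.96) and scored 0.0473 for Neat1 and 0.0235 for Malat1. Downstream of Malat1, an intergenic element (chr19:5794128-5795004 in Ctr-OPCs) had an activity of 2.76 and 2.56. It scored 0.0264 and 0.0299 for Malat1 and 0.0337 and 0.0383 for Neat1.

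Within the Malat1 gene the tables drew their elements differently. The Ctr-OPC table had 1 element of 880 bp with an activity of 1.69 and a score of 0.0416 for Malat1. The IFN-γ-OPC table had 2, of 664 and 500 bp, with activities of 1.08 and 0.870. Matched to the longer of these, the activity was 0.639-fold and the score 0.766-fold, whereas with both summed the activity was 1.16-fold and the score 1.38-fold. The summed IFN-γ-OPC score was 0.0576, above the cut-off, so with elements joined Malat1 had 2 connections in Ctr-OPCs against 3 in IFN-γ-OPCs. The direction at this place turned with the way the elements were drawn. Both genes had 12 listed elements within 50 kb of the start in Ctr-OPCs against 16 in IFN-γ-OPCs, where the median over all target genes was 3 in both conditions.

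**Figure D2:**
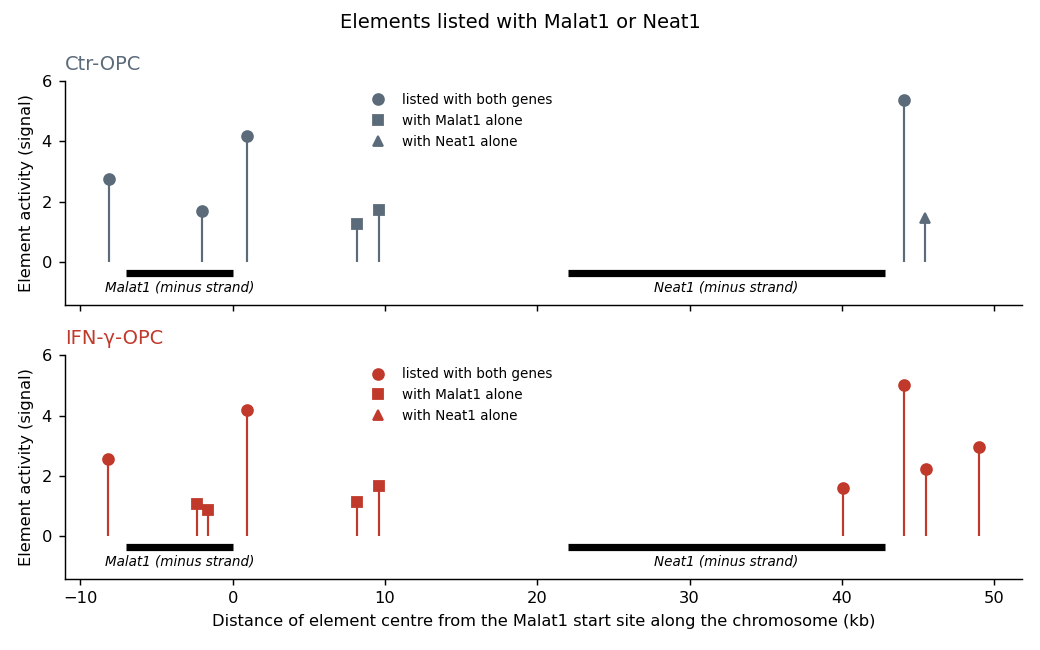
Activity (y axis, the deposited signal) of every element listed with Malat1 or Neat1 against the distance of its centre from the Malat1 start along the chromosome (x axis, kb), in Ctr-OPCs (top) and IFN-γ-OPCs (bottom), with gene bodies as black bars. The tallest elements stand just upstream of each gene in both conditions, at 4.18 and 5.38 in Ctr-OPCs and 4.20 and 5.02 in IFN-γ-OPCs, and 2 elements at or beside Neat1 appear in IFN-γ-OPCs alone.

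Neat1 could not be told apart from 2 of its neighbours in these data. Frmd8os, the antisense gene whose start lies 0.145 kb away, and Gm28006, a small RNA gene inside Neat1, were listed with all 11 elements of Neat1 and no others. Gm27505 and Gm27533, also inside Neat1, shared 9 of these 11 and were listed with 14, and each had 1 connection without IFN-γ and 3 with it, where Neat1 had 2 in both. Malat1 shared all 16 of its elements with Gm37376, whose start lies 0.731 kb away, and 12 of them with Gm27694, which lies inside Malat1 and was itself listed with 16. Gm27694 had 3 connections without IFN-γ and 2 with it, where Malat1 had 2 in both. Of the protein-coding neighbours, Frmd8 had 0 connections in both conditions, with a top score of 0.0492 without IFN-γ and 0.0460 with it. Ltbp3, a binding protein of latent TGF-β, had a top score of 0.0428 and 0.0404.

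Rmst (chr10:92071037-92165170, minus strand) had its connection within the gene itself. The element overlaps an exon of Rmst and of Gm26700 (chr10:92162398-92162897 in Ctr-OPCs, 2.52 kb from the start) and was listed with no other gene. Its activity was 0.730 in Ctr-OPCs against 0.693 in IFN-γ-OPCs, a ratio of 0.949. Its adjusted contact with the Rmst promoter was 0.0301 without IFN-γ and 0.0646 with it, 2.15-fold higher, in the same pair of 5 kb bins. The score was 0.0490 in Ctr-OPCs, just below the cut-off, and 0.0839 in IFN-γ-OPCs, 1.71-fold higher.

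The number of elements drawn there differed as well. A second Ctr-OPC element (chr10:92162907-92163406, score 0.0288) also overlapped the IFN-γ-OPC element. With both Ctr-OPC elements summed, the score was 0.0779 in Ctr-OPCs against 0.0839 in IFN-γ-OPCs, 1.08-fold, so the call past 1.5-fold was lost. The summed Ctr-OPC score was itself above the cut-off, so the gain of a connection at Rmst was lost as well. The higher contact is a value of the bins and does not depend on how the elements were drawn. An intergenic element 128.8 kb from the start (chr10:92036159-92036658) was listed with Rmst in Ctr-OPCs alone, at a score of 0.0235 and an adjusted contact of 0.00971. Its activity was 1.08 without IFN-γ and 1.37 with it. Since it was not listed with Rmst in IFN-γ-OPCs, its contact there was below 0.00780. Gm27999, a small RNA gene inside Rmst, shared 1 of 4 elements, and the coding neighbour Nedd1 was not listed.

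Snhg1 (chr19:8723475-8726443, plus strand) starts 0.106 kb from Slc3a2, the heavy chain of amino acid transporters, on the opposite strand. Its connection lay in coding sequence of Slc3a2, 9.99 kb from the Snhg1 start (chr19:8713240-8713739 in Ctr-OPCs, chr19:8712909-8713719 in IFN-γ-OPCs). The score was 0.0424 in Ctr-OPCs against 0.0757 in IFN-γ-OPCs, 1.78-fold higher. Activity was 2.53 and 3.77, 1.49-fold higher, and adjusted contact was 0.0258 and 0.0288, 1.12-fold higher. The element was 500 bp wide without IFN-γ and 811 bp with it. Per bp, its activity was 0.920-fold, so the higher activity went with the greater width. Scaled to 500 bp at the same gene total, the IFN-γ-OPC score was 0.0467, below the cut-off and within 1.5-fold of the Ctr-OPC score, so both the call past 1.5-fold and the gain of a connection were lost. Another element, in an intron of Slc3a2 (chr19:8722183-8722682), was listed in IFN-γ-OPCs alone at a score of 0.0227.

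Slc3a2 had the same elements, scores and number of connections as Snhg1, and these genes cannot be told apart at this resolution. A total of 5 genes shared all elements of Snhg1, among them Slc3a2 and the snoRNA gene Gm25855. Wdr74, whose start is 12.4 kb away, had a score of 0.0213 in Ctr-OPCs against 0.0401 in IFN-γ-OPCs with the same element. The deposited promoter activity quantile, the rank of a promoter among all genes as a fraction, was 0.951 without IFN-γ and 0.928 with it for Snhg1.

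Sox2ot (chr3:34104270-34682619, plus strand) spans 578.4 kb, and its elements lay far from its start. In Ctr-OPCs it was listed with 4 elements, all within the gene, of which 1 lay 92.3 kb from the start and 3 lay 556 to 559 kb away, beyond the start of Sox2. Those 3 scored 0.0325 (chr3:34659772-34660271), 0.0343 (chr3:34661352-34662717) and 0.0339 (chr3:34662826-34663730). They shared an adjusted contact of 0.00734, and their scores were 4.24 to 4.27 times the distance-based score. In IFN-γ-OPCs none of these 4 was listed with Sox2ot, and 2 others were, at 11.6 kb (score 0.0237) and 341.3 kb (score 0.0269).

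The 3 far elements overlapped elements listed with other genes in IFN-γ-OPCs. Their activities were 3.36, 3.55 and 3.51 in Ctr-OPCs and 2.48, 2.35 and 1.72 in the best overlapping elements of IFN-γ-OPCs. The last of these was lower past 1.5-fold at a ratio of 0.490, and so was the one before it at 0.662. Both were narrower in IFN-γ-OPCs, at 500 against 905 bp and 746 against 1366 bp, and per bp neither was past 1.5-fold. A further IFN-γ-OPC element (chr3:34662716-34663215, activity 1.55) overlapped both of these Ctr-OPC elements and is not counted in their ratios. At the activity of the first element, whose width was 500 bp in both tables, absence from the IFN-γ-OPC list means a contact below 0.00516. Sox2, the stem cell and progenitor factor, was listed with 7 elements in Ctr-OPCs against 9 in IFN-γ-OPCs. Its top score was 0.0452 and 0.0492, and it had 0 connections in both. Of the 6 elements of Sox2ot, counted over both tables, 4 were also listed with Sox2, which had 16, and 3 with Gm25442, which had 5.

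Miat (chr5:112213228-112229395, minus strand) was listed in Ctr-OPCs with 2 elements inside the gene. Their scores were 0.0357 (chr5:112220332-112221517, over an exon) and 0.0249 (chr5:112227547-112228046, in an intron). No element overlapping either was listed with any gene in IFN-γ-OPCs. Gm27357, a small RNA gene inside Miat that shared both elements, was also listed in Ctr-OPCs alone. The other 3 small RNA genes inside Miat, Gm27627, Gm27882 and Gm27998, were listed in both conditions, each with 3 elements without IFN-γ and 2 with it and with no connection. In IFN-γ-OPCs an element inside Miat (chr5:112213294-112214803) was listed with these 3 genes and not with Miat. The crystallin genes beside it were listed in both conditions, with top scores of 0.0282 and 0.0413 for Cryba4 and of 0.0201 and 0.0254 for Crybb1.

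Meg3 and Gas5 differed in their surroundings. Around Meg3 (chr12:109541001-109571726) there was no listed element within 100 kb in either condition, and the nearest lay 209.3 kb away without IFN-γ and 208.2 kb with it. The other imprinted genes named for this region, Dlk1, Rtl1, Rian and Mirg, were not listed either. Gas5 (chr1:161034422-161038539) had 5 listed elements within 50 kb in Ctr-OPCs against 6 in IFN-γ-OPCs, so the absence of Gas5 was not an absence of elements. Zbtb37, whose start lies 0.427 kb from that of Gas5, was not listed. A gene can be missing because its promoter activity quantile was under 0.4 or because no pair reached a score of 0.02, and the tables do not show which applied.

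The gene totals of these lncRNA genes were spread widely. In Ctr-OPCs the totals, from high to low, were 2.68 for Malat1, 2.58 for Neat1, 1.73 for Miat, 1.54 for Snhg1, 0.760 for Sox2ot and 0.448 for Rmst. In IFN-γ-OPCs they were 2.50 for Malat1, 2.34 for Neat1, 1.44 for Snhg1, 0.638 for Sox2ot and 0.534 for Rmst. The order of the 5 genes with both values was the same in both conditions, but without replicates it cannot be said which neighbours in it differ. Malat1 and Neat1 stood at percentiles 99.8 and 99.6 of all totals in Ctr-OPCs and at 99.9 and 99.7 in IFN-γ-OPCs. Rmst stood at 20.8 and 26.2, and Sox2ot at 45.5 and 35.9.

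Between conditions the totals moved little. The log2 ratio of IFN-γ-OPCs over Ctr-OPCs was -0.14 for Neat1, -0.10 for Malat1, -0.10 for Snhg1, -0.25 for Sox2ot and 0.25 for Rmst. Their median was -0.10, beside -0.07 over all 20321 genes with a total in both tables. None of the 5 was past 1.5-fold in either direction, and 0.615% of all genes were higher and 0.118% lower by that rule. Among all genes, the change of Rmst stood at percentile 93.0 and that of Sox2ot at 9.0. The promoter quantile was also higher for Rmst in IFN-γ-OPCs, at 0.611 against 0.522, and for Sox2ot at 0.632 against 0.459. For Miat it was 0.735 in Ctr-OPCs. It was 0.915 and 0.923 for Neat1 and 0.897 and 0.889 for Malat1.

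**Figure D3:**
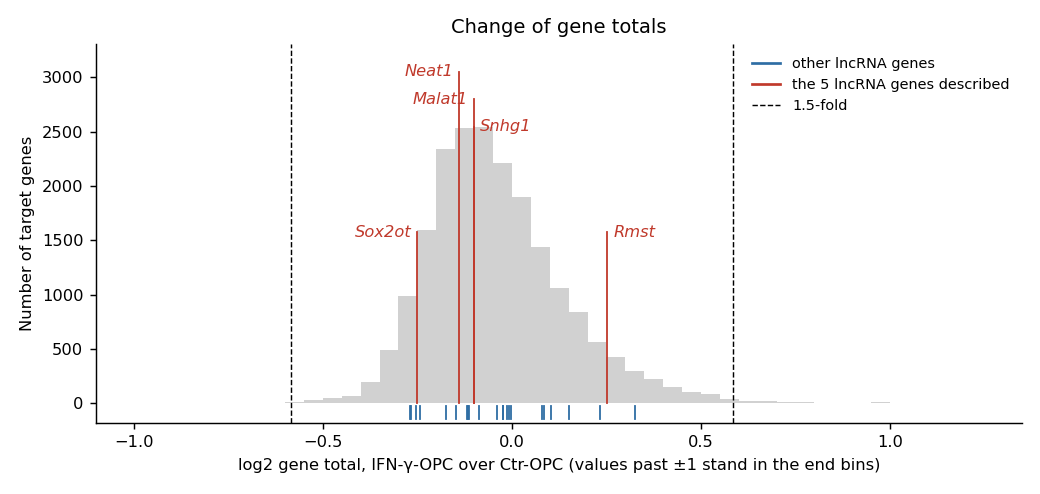
Number of target genes (y axis) by the log2 ratio of gene totals, IFN-γ-OPC over Ctr-OPC (x axis), for the 20321 genes with both totals (grey), with the 5 lncRNA genes as red lines, 22 other lncRNA genes as blue marks and 1.5-fold dashed. Neat1, Malat1 and Snhg1 lie at -0.14, -0.10 and -0.10 near the median of all genes, while Sox2ot (-0.25) and Rmst (0.25) lie towards the sides and none passes 1.5-fold.

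For 12 pairs of these genes the element could be matched between the tables, and the score ratio could be split into its parts. The median log2 ratio of the score was 0.17, beside 0.02 over all 29858 matched pairs. There were 3 pairs higher past 1.5-fold and 0 lower, with 14.8% of all matched pairs higher and 13.6% lower. As deposited, activity was the main component in 2 of the 3 and contact in the other. At Neat1 (the element 2.67 kb away) the activity was 1.52-fold and the contact 0.929-fold. At Rmst the contact was 2.15-fold and the activity 0.949-fold. At Snhg1 the activity was 1.49-fold and the contact 1.12-fold. Adjusted contact was past 1.5-fold in either direction in 1 of the 12 pairs, that of Rmst, and in 20.3% of all matched pairs. These pairs share elements, bins and totals, so they are not independent of each other.

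Of the elements listed with these genes in either condition, 14 were matched to an element of the other table. Their median log2 ratio of activity was -0.10, beside -0.08 over all 19332 matched elements. By the 1.5-fold rule 1 was higher, beside Neat1, and 3 were lower, within Malat1 and Sox2ot. Of all matched elements 9.37% were higher and 13.3% lower. All 3 lower elements were narrower in IFN-γ-OPCs, and per bp 0 of the 14 were lower past 1.5-fold while the element beside Neat1 was still higher. Of all 19332 matched elements, 1545 were higher and 1009 lower per bp by that rule.

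**Figure D4:**
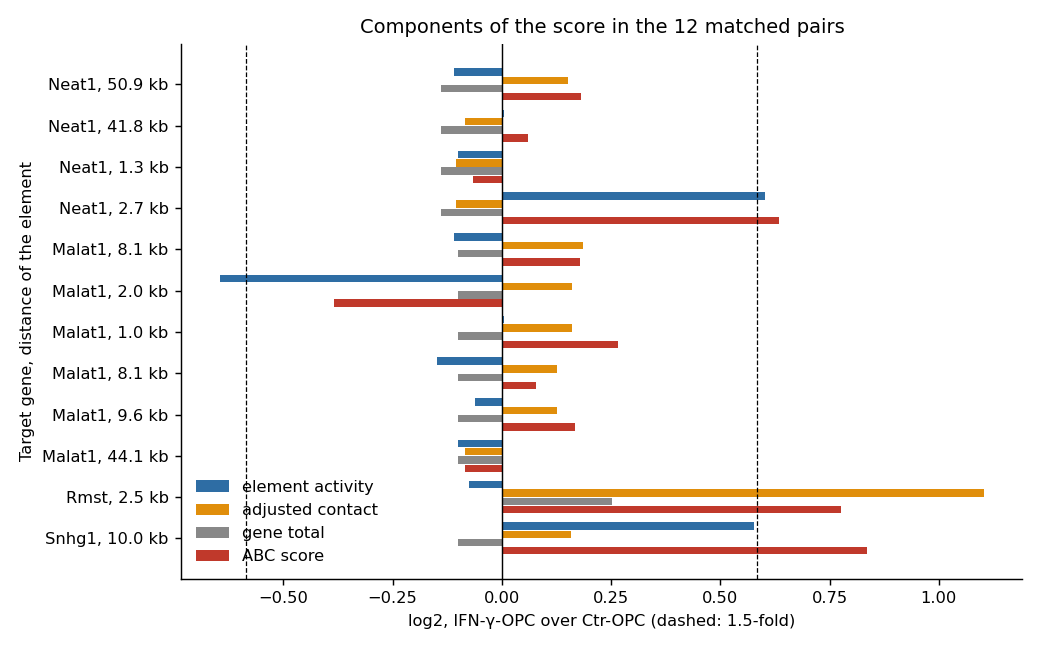
log2 ratio, IFN-γ-OPC over Ctr-OPC (x axis), of element activity, adjusted contact, gene total and ABC score for each of the 12 matched pairs, named by target gene and distance in Ctr-OPCs (y axis), with 1.5-fold dashed. The score bars past 1.5-fold to the right are those of Neat1 at 2.7 kb (log2 0.64), Rmst (0.78) and Snhg1 (0.84), led by activity, contact and activity. The Snhg1 element is 500 bp wide in Ctr-OPCs and 811 bp in IFN-γ-OPCs, and per bp its activity is 0.920-fold.

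Pairs of the lncRNA genes recurred between conditions in 13 of 21 cases in each table (61.9%), whereas 45.8% of all Ctr-OPC pairs and 42.8% of all IFN-γ-OPC pairs did. All 13 belonged to Neat1, Malat1, Rmst or Snhg1, and none to Miat or Sox2ot. Most were of Neat1 and Malat1, which share elements, so 1 locus was counted under both genes. The 4 connections of Ctr-OPCs were all connections in IFN-γ-OPCs. The median distance was 9.60 kb without IFN-γ and 8.17 kb with it, beside 15.2 and 15.8 kb over all pairs. Elements within genes made up 14 and 15 of the 21 pairs, 66.7% and 71.4%, beside 70.1% and 68.8% over all pairs. Pairs over 100 kb numbered 4 of 21 in Ctr-OPCs, 3 of Sox2ot and 1 of Rmst, and 1 of 21 in IFN-γ-OPCs, of Sox2ot. Over all pairs, 25.2% and 25.1% lay that far.

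A list of 44 other lncRNA names was set beside these. The annotation held 38 of them, of which 30 were listed as targets in at least 1 condition. The 6 names without a match could not be looked up, among them Norad, which is in the list also under its older name 2900097C17Rik. Snhg11 is annotated as protein-coding. They had 24 connections in Ctr-OPCs against 25 in IFN-γ-OPCs, and 5 genes were higher and 5 lower, beside 14.9% and 13.0% of all target genes. For the 22 with a total in both tables the median log2 ratio was -0.03, with 6 above 0 and 16 below and none past 1.5-fold in either direction. The highest ratios were those of Xist (0.33), the RNA of X inactivation, Pvt1 (0.23), the neighbour of Myc, and Pantr1 (0.15), beside the neural factor gene Pou3f3. The lowest were those of Firre (-0.27), an X-linked nuclear RNA, Snhg18 (-0.27), a snoRNA host, and H19 (-0.25), an imprinted RNA. Of connections, without and with IFN-γ, Xist had 6 and 5, Pvt1 1 and 3, Pantr1 0 and 2, Firre 1 and 1, Snhg18 1 and 0, and H19 1 and 2.

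The identity of the cultures was read from promoter quantiles. All 6 OPC markers were listed in both conditions, at 0.851 to 0.982 in Ctr-OPCs against 0.815 to 0.994 in IFN-γ-OPCs. Microglia markers were listed for 3 of 6 genes in Ctr-OPCs (0.473 to 0.782) and 5 of 6 in IFN-γ-OPCs (0.470 to 0.825), with Itgam in neither. Astrocyte markers were listed for 4 of 5 in both, without Aqp4, at 0.590 to 0.799 and 0.451 to 0.783. Neuron markers were listed for 5 of 5, at 0.644 to 0.870 and 0.573 to 0.868, so the ranges of OPC and neuron markers overlapped in both conditions. The range of microglia markers overlapped that of OPC markers in IFN-γ-OPCs, where P2ry12 was at 0.825 and Pdgfra at 0.815. The part of cells other than OPCs in the values of the lncRNA genes was not tested.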

How the data were processed

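H3K27ac-HiChIP of 6 libraries, 3 per condition, was aligned to mm10 and de-duplicated by the authors with HiC-Pro, and run with bulk ATAC-seq and CUT&RUN for H3K27ac through the ABC model with default parameters. One full table per condition was used. For element activity the authors turned coverage into a signal, and how it was scaled between conditions is not given in the sources used here. The ABC score is deposited as a fraction. Contact and adjusted contact are deposited as a score without set bounds. The distance-based score is a share like the ABC score, and the promoter quantile a rank from 0 to 1. No table lists a gene's own promoter.

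Gene totals were recovered as activity times adjusted contact divided by the ABC score (median over a gene's pairs). Elements were matched by mutual best overlap of at least 1 bp, for scores with the same gene. Samples were grouped by library title. With 1 table per condition no test was made. Symbols came from GENCODE M21, in which 31937 of 32049 target genes were found. Sequence came from RefSeq GRCm38.p6. The procedure was tested on simulated data. Python 3.11.15, pandas 2.3.3, NumPy 2.4.6 and matplotlib 3.10.9 were used.

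The genes, the neighbours, the list of 44 other lncRNA genes, the markers and the motifs were chosen with earlier results of these data known. Named genes were the 8 genes, their neighbours, the 3 highest and 3 lowest totals among the other lncRNA genes, and up to 2 genes sharing most elements with each. Alternatives were other cut-offs, the distance-based score, other scalings and other rules of overlap. Some neighbouring genes and 1 motif are not reported here.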

Additional observations from a re-analysis of the deposited data

How the results depend on the processing

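No paired analysis was possible because the 3 libraries of each condition were joined in its table, and no replicate could be left out. The summed change in connections, 2, was 0 when all listed pairs were counted or when the cut-off was 0.1, and it was 2 with the distance-based score and with equal numbers of top-scoring connections. With the distance-based score it came from other genes, since Neat1 went from 1 to 4, Sox2ot from 0 to 1, Malat1 from 3 to 2 and Rmst from 2 to 1, while Snhg1 had 1 in both. Alternatives chosen after seeing the data gave 1, without the gain of Snhg1, when matched scores were scaled to the Ctr-OPC width, and 2 with overlapping elements joined, where Malat1 gained 1 in place of Rmst. For Rmst the gain of 1 reversed to -2 over all listed pairs and to -1 with the distance-based score. The median log2 activity of -0.10 reversed to 0.00379 after dividing by each table's median, and the median log2 total of the other lncRNA genes reversed from -0.03 to 0.0178 by the same kind of scaling, a shift common to all genes or elements. At 2-fold, 0 elements were higher and 1 was lower in activity. Activity per bp, chosen after seeing the data, left 0 lower. The median log2 score of 0.17 was 0.0463 with the distance-based score. Joining overlapping elements, also chosen after seeing the data, left 2 scores higher past 1.5-fold in place of 3. Of the other lncRNA genes, 11 had more and 8 had fewer over all listed pairs. Above 0.05 alone, 100.0% of the 4 Ctr-OPC pairs and 66.7% of the 6 IFN-γ-OPC pairs were shared, and their median distance was 21.6 kb and 6.28 kb. The cause of these shifts was not tested, beyond the smaller number of pairs that the alternative itself sets. Among changes in connection counts of single genes, 33 stayed equal or within 1.5 times. Another 13 moved between 0 and a gain or loss or by over 1.5 times, and 2 reversed, both of Rmst. Meg3 and Gas5 had no listed pair, so theirs were 0 under every alternative and could only stay equal. Totals of single genes kept their direction under both alternatives, but these could have changed little. Using the highest-scoring pair alone had to return the same total apart from rounding, since every pair of a gene shares its gene total. Rescaling the totals within a condition moved all log2 ratios equally, so it could reverse only a small ratio.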

Other observations

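Small RNA genes inside the host genes were listed under their own start sites, and they were named after their values were seen. All 10 snoRNA genes inside Gas5 were listed in both conditions, although Gas5 was in neither table. None of these 10 had a connection. In each condition all 10 rested on the same 1 element, and Snord80 is among them under separate Ensembl genes, so they are not separate events. All 8 snoRNA genes inside Snhg1 had 0 connections in Ctr-OPCs against 1 each in IFN-γ-OPCs, with top scores of 0.0265 to 0.0424 and of 0.0507 to 0.0757. All 8 rested on the 1 element that Snhg1 and Slc3a2 had as a connection, an element wider in IFN-γ-OPCs, so they are not separate events. Of all target genes, 14.9% had more connections in IFN-γ-OPCs. Inside Sox2ot, the lncRNA gene Gm34599 had 2 connections without IFN-γ and 1 with it, with a top score of 0.121 and 0.107.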
